A study of Mus musculus with 6 samples.

Results

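The genes described here are 10 genes by which endothelial cells are usually recognised: Pecam1, Cdh5, Tek, Tie1, Emcn, Eng, Erg, Sox17, Sox18 and Egfl7. They were chosen by name, and all 10 were found among the 55494 gene rows of the table. RNA was sequenced from cultured primary mouse muscle stem cells, the cells that rebuild adult skeletal muscle. In 3 libraries the wild-type cells had received 11,12-EET for 2 days, and in the other 3, the controls, wild-type cells were cultured without it. 11,12-EET belongs to the epoxyeicosatrienoic acids, signalling lipids derived from arachidonic acid by cytochrome P450 epoxygenases and known as products of the endothelium. The sources used here do not give the dose, the control medium, or the strain, age, sex and number of the mice.

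Endothelial cells line blood and lymph vessels, and in muscle every fibre lies against capillaries. Their identity rests on adhesion proteins that seal cell to cell, on the Tie receptors that read angiopoietins, and on transcription factors of the ETS and SOXF families that act on many of the other genes. Several of these genes are not confined to endothelium. Pecam1 is also made by platelets and leukocytes, Eng by stromal cells and macrophages, and Tek has been described in muscle stem cells.

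The 6 libraries held between 30371291 and 37243882 counts each, with no separation of the groups (exact two-sided permutation test of the difference of means, p = 0.8, the smallest possible for 3 and 3 libraries being 0.1). Levels are given in CPM, each library's counts scaled to a common total after TMM correction. Whether libraries of one group stem from different mice or dishes is not stated in the labels, so the p-values reflect the spread between these libraries alone, which may be technical. The cells carried the markers of their label: Pax7, the defining factor of muscle stem cells, was at 83.5 ± 1.64 CPM with EET and 114 ± 4.71 CPM in controls, and Myod1, a myogenic determination factor, at 1159 ± 13.9 CPM with EET and 977 ± 42.4 CPM in controls (SD, n = 3 each). Fold changes across the table followed mRNA length, with short mRNAs higher and long ones lower with EET (Spearman rho −0.68 over 13802 protein-coding genes, which are not independent replicates). Fold changes are therefore given both as counted and after removal of each library's trend on mRNA length and GC content, while CPM values and proportions of counts are as counted. Between these fits Pax7 lost its call (log2 fold change −0.45 as counted, −0.049 with the trend removed, edgeR adjusted p = 0.509), and Myod1 turned (0.25 as counted and called higher, −0.14 with the trend removed and called lower, edgeR adjusted p = 0.0199).

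Most of the 10 genes were lower in the EET libraries. Cdh5, Pecam1, Tek, Tie1, Erg and Sox17 fell, Egfl7 rose, and Eng, Emcn and Sox18 did not pass the test (edgeR's quasi-likelihood test, p adjusted after Benjamini and Hochberg over all 16097 genes tested, threshold 0.05). All 10 passed the filter on low counts. The count of 6 of 10 lower stands against 23.3% of all genes called lower, the count of 1 of 10 higher against 24.6% called higher, and the 7 calls in either direction against 47.9%. The median log2 fold change of the 10 genes was −0.57, beside 0.0050 for all genes tested. In bulk RNA, fewer endothelial cells, less of these mRNAs per cell and a change in other cells that make some of them cannot be told apart. The groups did not overlap for the 7 genes that were called, 6 lower and 1 higher, where 28.0% of all genes tested did not overlap and were lower, 29.6% did not and were higher, and 57.7% did not in either direction.

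**Figure D1:**
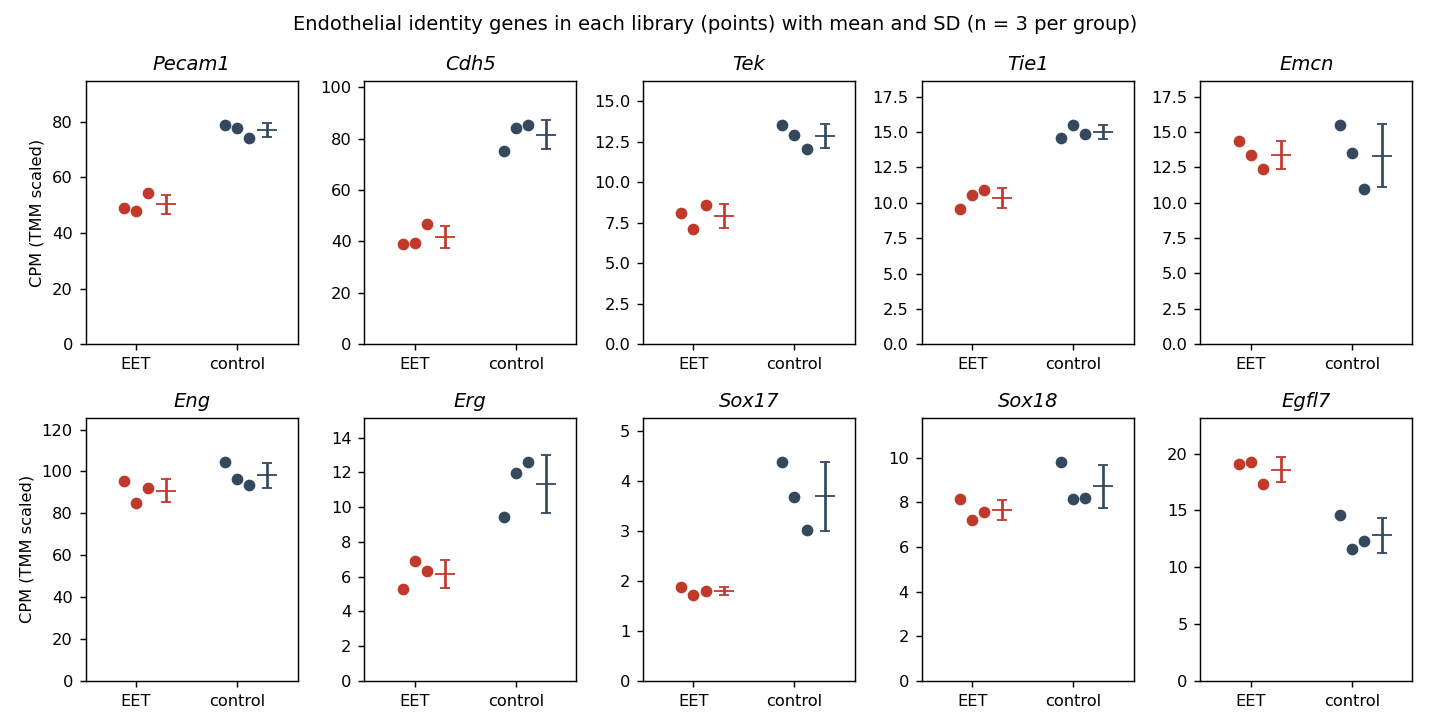
Level of each of the 10 genes in CPM (TMM scaled, linear axes from 0) in the 3 EET and the 3 control libraries, with the mean and SD of each group beside the points. The EET points lie below all control points for Pecam1, Cdh5, Tek, Tie1, Erg and Sox17, and above them for Egfl7.

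Cdh5 and Pecam1 encode the main adhesion proteins of endothelial junctions. Cdh5, the gene of VE-cadherin at chr8:104101625-104144511 (plus strand, GRCm38), had 38.9, 39.3 and 46.6 CPM with EET and 75.0, 84.2 and 85.3 CPM in controls. Every EET library was far below every control. Its level with EET was 0.51 times that in controls, a log2 fold change of −0.97 ± 0.09 (SE, adjusted p = 1.77e-06). Pecam1, the gene of the adhesion receptor CD31 at chr11:106654217-106750628 (minus strand), had 49.0, 47.8 and 54.2 CPM with EET and 78.8, 77.7 and 74.1 CPM in controls. The groups were again apart, with a smaller step, at a log2 fold change of −0.61 ± 0.08 (edgeR adjusted p = 1.60e-05).

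Tek and Tie1 encode the angiopoietin receptor TIE2 and its partner TIE1. Tek, at chr4:94739289-94874976 (plus strand), had 8.07, 7.13 and 8.61 CPM with EET and 13.5, 12.9 and 12.1 CPM in controls, a log2 fold change of −0.69 ± 0.12 (edgeR adjusted p = 0.000288). Tie1, at chr4:118471191-118490061 (minus strand), had 9.55, 10.6 and 10.9 CPM with EET and 14.6, 15.5 and 14.9 CPM in controls, a log2 fold change of −0.54 ± 0.11 (edgeR adjusted p = 0.000845). Both receptors were lower in every EET library. Within a library the count of Tek was 0.845, 0.676 and 0.791 of that of Tie1 with EET and 0.930, 0.831 and 0.810 in controls, so their proportion overlapped between the groups.

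Erg, Sox17 and Sox18 encode transcription factors of the endothelial programme. Erg, an ETS factor at chr16:95359169-95586593 (minus strand) that keeps up junction genes such as Cdh5, had 5.30, 6.88 and 6.31 CPM with EET and 9.46, 12.0 and 12.6 CPM in controls. Its log2 fold change was −0.88 ± 0.15 (edgeR adjusted p = 0.000214). Sox17, a SOXF factor known for arterial endothelium at chr1:4490931-4497354 (minus strand), was the scarcest of the 10 genes, with 577 counts in all libraries together. It had 1.88, 1.73 and 1.80 CPM with EET and 4.39, 3.67 and 3.02 CPM in controls, a log2 fold change of −1.03 ± 0.22 (edgeR adjusted p = 0.00106). The EET libraries were close to each other, while the controls spread by a standard deviation of 0.684 CPM.

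Sox18, the related SOXF factor at chr2:181669836-181671640 (minus strand), behaved differently as counted. It had 8.15, 7.23 and 7.58 CPM with EET and 9.83, 8.14 and 8.20 CPM in controls, so EET 1 stood just above the lowest control. Its log2 fold change of −0.19 ± 0.14 did not pass (edgeR adjusted p = 0.278), and the interval of 2 SE either side ran from −0.46 to 0.083. The Sox17 count was 0.231, 0.239 and 0.238 of the Sox18 count with EET and 0.447, 0.451 and 0.368 of it in controls. This proportion, chosen after its values were seen and given no test, was smaller in every EET library. It does not depend on library scaling but does depend on the length and GC trend: with the trend removed Sox17 and Sox18 were closer to each other, at −1.0 and −0.70 on the log2 scale.

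Eng and Emcn, genes of 2 surface glycoproteins, did not pass. Eng, the gene of the TGF-beta and BMP co-receptor endoglin at chr2:32646595-32682669 (plus strand), had 95.5, 84.8 and 92.2 CPM with EET and 105, 96.2 and 93.5 CPM in controls (log2 fold change −0.11 ± 0.07, edgeR adjusted p = 0.241). The 2 SE interval of −0.26 to 0.037 does not reach the values of Cdh5 or Pecam1. Emcn, the gene of the sialomucin endomucin at chr3:137341067-137432185 (plus strand), had 14.3, 13.4 and 12.4 CPM with EET and 15.5, 13.5 and 11.0 CPM in controls, and its controls spanned the EET libraries. Its log2 fold change was 0.0029 ± 0.13 (edgeR adjusted p = 0.988), with a 2 SE interval of −0.26 to 0.26. Exons of Fpgs overlap Eng on the opposite strand, and how the counting treated strand is unknown here. Fpgs, the gene of folylpolyglutamate synthase, was higher with EET, at 54.8 ± 3.63 CPM, against 45.4 ± 4.6 CPM in controls (edgeR adjusted p = 0.0211), and was not called with the trend removed.

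Egfl7, the gene of a secreted protein of vessel walls at chr2:26580014-26593120 (plus strand), was the 1 gene of the 10 that rose. It had 19.1, 19.3 and 17.3 CPM with EET and 14.6, 11.6 and 12.3 CPM in controls, a log2 fold change of 0.53 ± 0.11 (edgeR adjusted p = 0.00110). Within Egfl7 lies Mir126a, whose product miR-126 is the best known endothelial miRNA. The mature 3p arm is shown because it is a further product of this locus, with bases 2 to 8, the seed, in capitals (RefSeq, GRCm38.p6, chr2:26591402-26591423, plus strand).
mmu-miR-126a-3p: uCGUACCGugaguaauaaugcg
The row of Mir126a had 0 counts in each of the 6 libraries, where a count of 0 allows up to 3 counts per library. Libraries of poly(A) RNA do not capture mature miRNAs, so this row says nothing about the level of miR-126. Agpat2, an acyltransferase gene whose exons overlap Egfl7 on the opposite strand, rose as well, to 25.3 ± 2.37 CPM with EET, against 14.6 ± 0.131 CPM in controls (log2 fold change 0.79 ± 0.10). Agpat2 was still called higher with the trend removed, at 0.25 (edgeR adjusted p = 0.0425). The share of reads counted for Egfl7 that came from Agpat2 was not tested.

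Removal of the length and GC trend left the 6 falls in place and ended the rise of Egfl7. In that fit 7 of the 10 genes were lower and 0 higher, against 17.1% lower, 17.1% higher and 34.2% in either direction among the 13802 protein-coding genes tested. The median of the 10 genes was −0.48. Cdh5 was at −0.80 ± 0.07 (edgeR adjusted p = 6.09e-08), Pecam1 at −0.54 ± 0.06, Erg at −0.85 ± 0.14 and Sox17 at −1.0 ± 0.22 on the log2 scale. Of the 6 that fell, Pecam1, Erg and Sox17, with mRNAs of 3441, 3249 and 3242 bp, differed least between the fits. Cdh5, with 3995 bp, Tek, with 4654 bp, and Tie1, with 4234 bp, were each nearer to 0 than as counted, Tek and Tie1 at −0.42 ± 0.12 and −0.35 ± 0.10 (edgeR adjusted p = 0.00889 and 0.0114).

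The 2 genes with the shortest mRNAs moved most between the fits. Egfl7, with 1391 bp, was at −0.061 ± 0.09 (edgeR adjusted p = 0.650) once the trend was removed, and Sox18, with 1620 bp, was called lower at −0.70 ± 0.13 (edgeR adjusted p = 0.000231). Of the 696 protein-coding genes within 10% of the length of Egfl7, 69.1% were called higher as counted, at a median log2 fold change of 0.57, beside 0.53 for Egfl7. Of the 845 within 10% of the length of Sox18, 65.2% were called higher, at a median of 0.45, whereas Sox18 was at −0.19. Eng and Emcn were called in neither fit (−0.060 ± 0.05 and −0.15 ± 0.12 with the trend removed). A value with the trend removed compares a gene with mRNAs of similar length and composition, and the removal was chosen with earlier results of these data known.

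**Figure D2:**
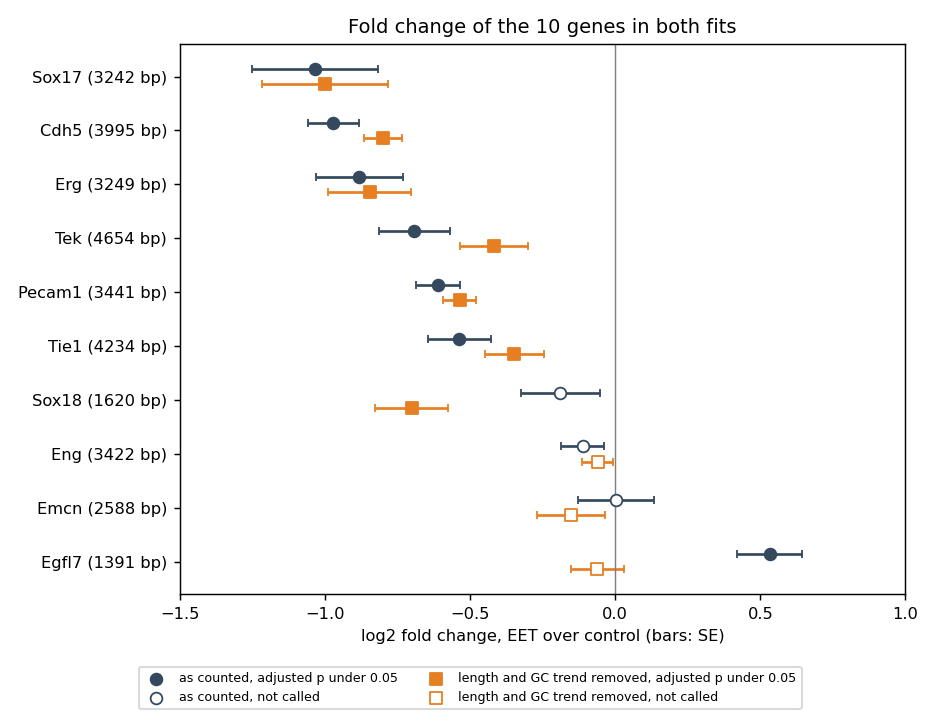
Log2 fold change of EET over control for each of the 10 genes, with its SE as bars, as counted (circles) and after removal of the length and GC trend (squares), filled where the adjusted p is under 0.05. The mRNA length of each gene stands beside its name, and Sox18 and Egfl7 are the genes whose call differs between the fits.

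**Figure D3:**
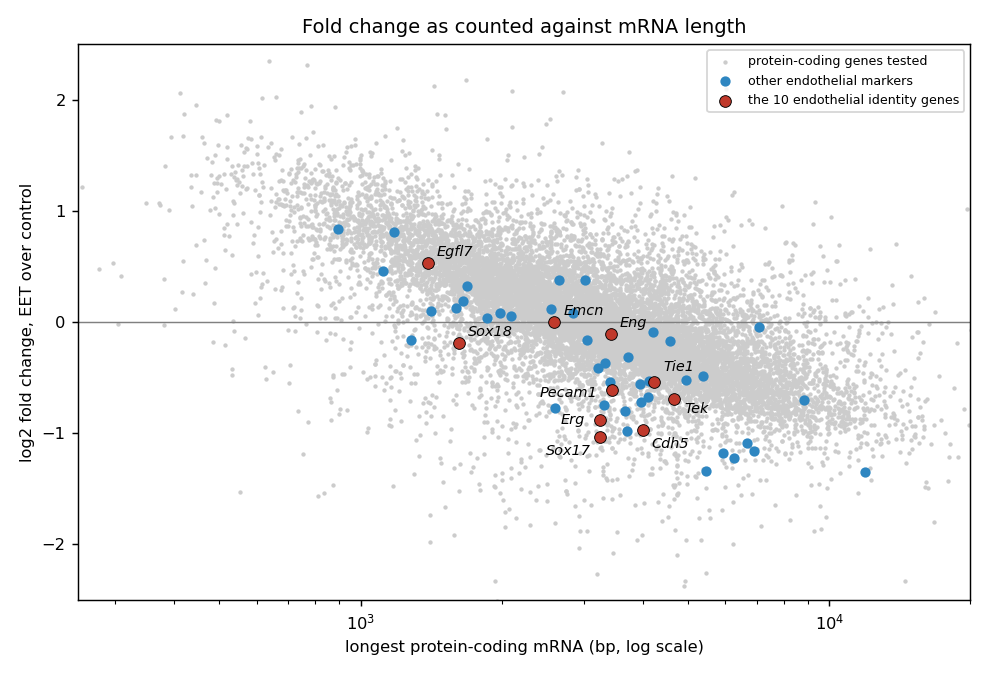
Log2 fold change as counted (vertical axis) against the length of the longest protein-coding mRNA (horizontal log axis, bp) for all protein-coding genes tested in grey, 40 other endothelial markers in blue and the 10 genes in red. The grey cloud slopes downward, and Cdh5, Erg and Sox17 lie toward its lower side while Egfl7 and Eng lie within it.

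Per length of mRNA the 10 genes spanned a wide range of levels. In CPM per kb, Eng was the most abundant, at 26.5 ± 1.62 with EET and 28.7 ± 1.71 in controls, and Sox17 the least, at 0.556 ± 0.024 and 1.14 ± 0.211 (SD, n = 3 each). Pecam1 followed Eng in both groups, at 14.6 ± 0.993 with EET and 22.3 ± 0.724 in controls. Egfl7 was at 13.4 ± 0.776 with EET and 9.22 ± 1.11 in controls, and Cdh5 at 10.4 ± 1.09 with EET and 20.4 ± 1.42 in controls. Egfl7 thus stood above Cdh5 in every EET library and below it in every control, and Pecam1 and Cdh5 were neighbours that did not overlap in controls. The change of order between Egfl7, with 1391 bp, and Cdh5, with 3995 bp, is as counted and may depend on the length trend. With the trend removed their log2 fold changes were −0.061 and −0.80, and the order of levels was not assessed in that fit. Sox18 and Emcn were neighbours whose libraries overlapped in both groups (4.73 ± 0.288 and 5.17 ± 0.376 with EET, 5.39 ± 0.590 and 5.15 ± 0.871 in controls). Tie1, Erg and Tek came next, between 1.71 and 2.44 with EET and between 2.76 and 3.54 in controls, and Tie1 and Erg overlapped in controls, as did Erg and Tek with EET. For scale, Pax7 had 14.3 CPM per kb with EET and 19.5 in controls, and Myod1 had 623 and 525.

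**Figure D4:**
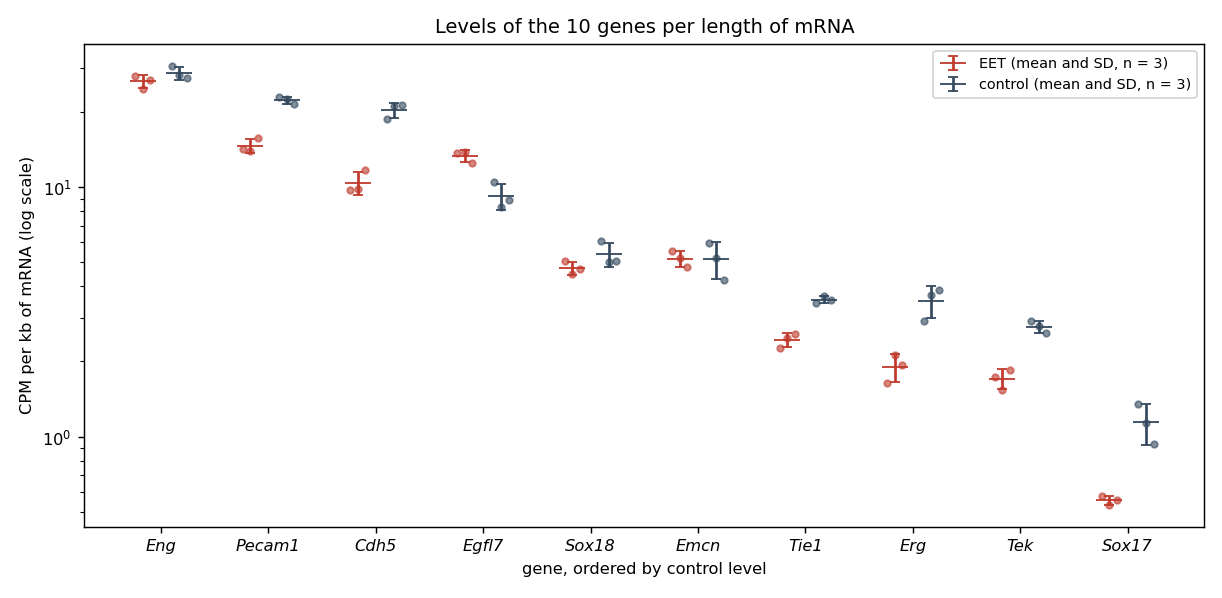
Level of each gene in CPM per kb of its longest protein-coding mRNA (log axis) for the 3 EET and 3 control libraries, with group mean and SD. Genes are ordered by control level from Eng at 28.7 to Sox17 at 1.14, and Egfl7 is the gene whose EET points all lie above its controls.

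The balance among the genes differed between the groups. The count of Cdh5 was 2.03, 2.04 and 2.69 times that of Egfl7 with EET and 5.15, 7.26 and 6.91 times in controls. Set against Eng, it was 0.407, 0.464 and 0.505 with EET and 0.717, 0.875 and 0.913 in controls. Against the count of Erg it was 7.33, 5.71 and 7.39 with EET and 7.93, 7.03 and 6.76 in controls. Against that of Sox17 it was 20.7, 22.7 and 25.9 with EET and 17.1, 22.9 and 28.2 in controls. Cdh5 thus kept overlapping proportions only to Erg and Sox17, while it fell against Eng and Egfl7. It also fell, with no overlap of the groups, against Pecam1, Tek, Tie1, Emcn and Sox18. The mean log2 proportion of Cdh5 differed between EET and control by −0.28 to Tek, −0.44 to Tie1, −0.99 to Emcn and −0.79 to Sox18. That of Pecam1 to Cdh5 differed by 0.36. Whether Erg or Sox17 acted on Cdh5 in these cells was not tested. These proportions are as counted, were picked after their values were seen and were given no test. With the trend removed the log2 fold changes behind them were −0.80 for Cdh5, −0.061 for Egfl7, −0.060 for Eng, −0.85 for Erg and −1.0 for Sox17. Those of Pecam1, Tek, Tie1, Emcn and Sox18 were −0.54, −0.42, −0.35, −0.15 and −0.70 in that fit. Cdh5 and Egfl7 were then less far apart than as counted. Summed over the 10 genes, the level was 250, 238 and 258 CPM with EET and 340, 335 and 327 CPM in controls, or 248.6 ± 9.99 and 334 ± 6.76 CPM on average. Eng made up 36.5 ± 1.49% of that sum with EET and 29.3 ± 1.23% in controls, and Cdh5 16.7 ± 1.27% and 24.4 ± 2.11%.

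Within each group the genes did not share 1 ranking of libraries. Control 1 was the highest control for 7 of the 10 genes and the lowest for the other 3, Cdh5, Tie1 and Erg. Control 3 was the lowest control for 5. With EET, libraries 1 and 3 were each the highest for 4 genes and library 2 for 2. The median deviation of a library from its group mean over the 10 genes ran from −0.067 (EET 2) to 0.087 (control 1) on the log2 scale. Single genes deviated by more, from −0.27 (control 3) to 0.27 (control 1).

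The RefSeq table holds windows of 250 bases before to 50 bases after the start site for 6 of the genes: Tek, Tie1, Emcn, Eng, Erg and Egfl7, with 10 windows in all, several for Erg and Egfl7. They were searched on both strands for 2 ETS motifs, CCGGAAGT and ACAGGAAG, the SOX motif AACAAT and the GATA motif AGATAA, because the ETS, SOX and GATA families are the known regulators of endothelial genes. Of the 5 windows with a match, 1 per gene is shown, with matches in capitals, for genes that fell (Tek, Erg), did not pass (Emcn) and rose as counted (Egfl7). The other, a second Egfl7 window, holds ACAGGAAG starting 91 bases before its start site. All are from GRCm38.p6 and are written along the gene's strand, and no 2 matches overlap.
Tek, chr4:94739039-94739338, plus strand: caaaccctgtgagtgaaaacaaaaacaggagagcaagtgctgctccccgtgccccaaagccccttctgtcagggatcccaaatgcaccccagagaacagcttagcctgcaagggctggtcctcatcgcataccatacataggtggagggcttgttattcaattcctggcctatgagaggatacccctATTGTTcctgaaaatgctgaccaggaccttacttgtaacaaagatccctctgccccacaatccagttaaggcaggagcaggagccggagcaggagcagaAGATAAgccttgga
Erg, chr16:95459299-95459598, minus strand: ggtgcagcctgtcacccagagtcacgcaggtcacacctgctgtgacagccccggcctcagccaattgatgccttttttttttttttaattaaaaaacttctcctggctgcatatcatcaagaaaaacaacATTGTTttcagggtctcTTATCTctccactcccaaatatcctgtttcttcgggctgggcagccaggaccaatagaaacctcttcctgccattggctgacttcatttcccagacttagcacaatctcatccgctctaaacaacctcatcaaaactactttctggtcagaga
Emcn, chr3:137340828-137341127, plus strand: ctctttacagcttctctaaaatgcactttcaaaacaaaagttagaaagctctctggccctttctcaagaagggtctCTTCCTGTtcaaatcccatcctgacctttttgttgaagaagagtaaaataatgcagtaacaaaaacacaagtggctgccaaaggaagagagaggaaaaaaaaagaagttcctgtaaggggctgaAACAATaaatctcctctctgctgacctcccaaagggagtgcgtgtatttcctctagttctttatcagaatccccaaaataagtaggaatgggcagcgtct
Egfl7, chr2:26583615-26583914, plus strand: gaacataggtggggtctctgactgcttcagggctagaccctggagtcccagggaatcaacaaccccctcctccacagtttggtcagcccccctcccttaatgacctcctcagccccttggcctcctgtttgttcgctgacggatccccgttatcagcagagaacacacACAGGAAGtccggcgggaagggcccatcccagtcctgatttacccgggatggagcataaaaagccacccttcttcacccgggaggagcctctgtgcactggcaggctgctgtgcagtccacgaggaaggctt
The Tek window holds a SOX match and a GATA match, the Erg window the same kinds, the Emcn window an ETS and a SOX match, and the Egfl7 window an ETS match starting 82 bases before the start site. ACAGGAAG was in 3 of the 10 windows, those of Emcn and Egfl7, and in 3.58% of 32851 promoter windows of the same length. CCGGAAGT was in 0 of the 10 and in 3.89% of all, AACAAT in 3 of the 10 and in 10.7% of all, and AGATAA in 2 of the 10 and in 11.2% of all. The windows of Tie1 and Eng held none of the 4 motifs. Windows of 1 gene are not independent, and a match is a run of letters, not a measured site.

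The 40 other endothelial markers moved both ways as counted. Of these, 16 fell, 3 rose and 21 did not pass, where 23.3% of all genes tested were called lower and 24.6% higher. The markers had a median log2 fold change of −0.34 beside 0.0050 for all genes tested. Among those that fell were the VEGF receptor genes Kdr and Flt1, at 22.5 ± 3.34 and 13.5 ± 1.49 CPM with EET and 50.9 ± 4.10 and 30.2 ± 1.45 CPM in controls (log2 fold changes −1.18 ± 0.11 and −1.16 ± 0.10, or −0.74 and −0.62 with the trend removed). Vwf, the gene of von Willebrand factor, fell as well (−0.70 ± 0.13), while Cldn5, the gene of the endothelial tight junction protein claudin 5, was at 11.1 ± 2.5 CPM with EET and 10.4 ± 1.98 CPM in controls and did not pass (edgeR adjusted p = 0.683). The 3 that rose were Ramp2, Fabp4 and Ecscr, whose mRNAs of 896 to 1178 bp are the shortest of the 40. Those that fell had 2596 to 11911 bp.

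With the trend removed, the same 40 markers held 18 lower and 1 higher, Tspan7, a tetraspanin gene with an mRNA of 7067 bp, at a median of −0.33 beside −0.016 for all genes. Among the 13802 protein-coding genes tested, 17.1% were lower and 17.1% higher in that fit. Of the 16 markers that fell as counted 13 were lower in that fit too, and of the 3 that rose none was called. Cldn5 was then lower (−0.51, edgeR adjusted p = 0.00607) and Vwf was not called (−0.13, edgeR adjusted p = 0.475). Over the 40 markers the Spearman rho of length and log2 fold change was −0.77 as counted and −0.21 with the trend removed, and over the 10 genes it was −0.48 and −0.067. These coefficients describe genes of the same 6 libraries.

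**Figure D5:**
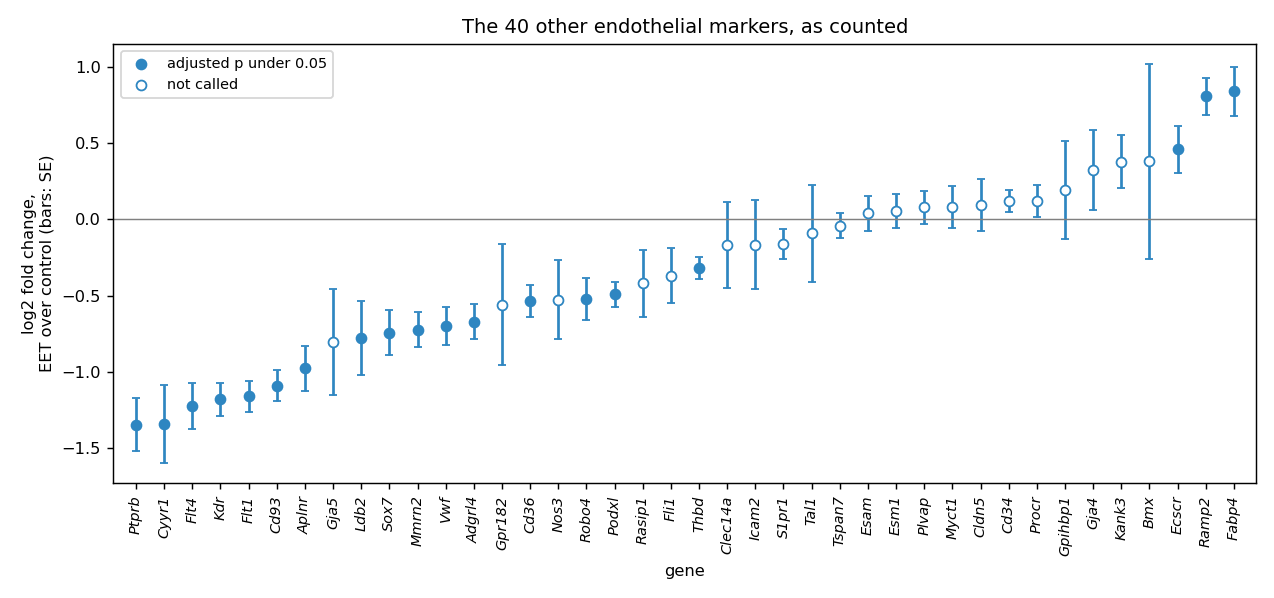
Log2 fold change as counted, EET over control, with its SE for each of the 40 other endothelial markers, ordered by value. Filled points mark the 16 genes that fell, from Ptprb at −1.34 on the left, and the 3 that rose, Ecscr, Ramp2 and Fabp4, on the right.

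Around the Tie receptors, 11 of 17 tested genes fell and 2 rose, at a median of −0.38, or 7 and 1 with the trend removed, at −0.15. The shares of all genes, for this list and those below, were 23.3% lower and 24.6% higher as counted. With the trend removed they were 17.1% lower and 17.1% higher. Angpt2, the angiopoietin that mostly antagonises TIE2, fell to 49.1 ± 4.25 CPM, against 70.2 ± 1.71 CPM in controls, and was still lower with the trend removed (−0.42). Angpt1, the activating angiopoietin, was at 2.23 ± 0.795 CPM with EET and 2.94 ± 0.784 CPM in controls and did not pass. Ptprb, the phosphatase VE-PTP that acts on TIE2 and VE-cadherin, fell by 1.34 on the log2 scale (SE 0.17), or 0.70 with the trend removed, and Ptpn11, a phosphatase that docks on activated receptors, had −0.55 and −0.16 in the 2 fits.

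Genes around endoglin went both ways, with 9 of 18 tested lower and 3 higher (median −0.22), or 5 and 5 with the trend removed (median −0.025). Acvrl1, the gene of the receptor ALK1 with which endoglin signals, was at 15.7 ± 1.59 CPM with EET and 16.2 ± 0.802 CPM in controls and did not pass. Id1 and Id3, targets of BMP signalling, rose to 334 ± 25.9 and 448 ± 21.1 CPM with EET, against 175 ± 12.0 and 250.9 ± 23.8 CPM in controls. Their mRNAs are short, and with the trend removed both were higher by less (0.21 and 0.19 in place of 0.94 and 0.83). Gdf2 and Bmp10, the ligands of ALK1, were below the filter.

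Of 17 tested ETS, SOXF and related factors 9 fell and 1 rose (median −0.29), or 6 and 2 with the trend removed (median −0.13). Sox7, the third SOXF gene, fell to 5.45 ± 0.680 CPM, against 9.10 ± 0.772 CPM in controls, by 0.74 as counted and 0.70 with the trend removed. Fli1, the ETS factor closest to Erg, was at 4.76 ± 0.680 CPM with EET and 6.14 ± 1.07 CPM in controls and did not pass (edgeR adjusted p = 0.106). Ets1 and Elf4, ETS factors found well beyond endothelium, fell to 170 ± 10.8 and 34.7 ± 3.43 CPM, against 235 ± 8.94 and 59.0 ± 6.68 CPM in controls, by 0.47 and 0.77 as counted and by 0.14 and 0.31 with the trend removed on the log2 scale. Of 23 tested junction partners 10 fell and 4 rose (median −0.26), or 10 and 6 with the trend removed (median −0.28). Heg1, a receptor gene of endothelial junctions, fell by 0.99 (0.36 with the trend removed), while Rap1a, a small GTPase gene of adhesion signalling, rose by 0.66 (0.45).

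Markers of other cells that such a culture could hold were measured in the same libraries. Beside them, 23.3% of all genes were called lower and 24.6% higher as counted, and 17.1% lower and 17.1% higher with the trend removed. Of 16 tested macrophage and leukocyte markers 2 fell, Ptprc and Csf1r, and 0 rose, or 9 fell and 1 rose with the trend removed. Their median log2 fold change was 0.0043 as counted and −0.66 with the trend removed, beside −0.57 and −0.48 for the 10 genes. Ptprc, the gene of the leukocyte antigen CD45, was at 7.13 ± 1.22 CPM with EET and 14.05 ± 1.74 CPM in controls (−0.98, or −0.67 with the trend removed), and Csf1r was at −0.58 and was not called with the trend removed (−0.31, edgeR adjusted p = 0.0554). The summed level of that list ran from 245 to 449 CPM with EET and from 365 to 397 CPM in controls, with the T cell gene Cd3e at 0.090 CPM with EET and 0.076 CPM in controls. Its most abundant gene, the lysozyme gene Lyz2, had 283, 145 and 128 CPM with EET and 206, 212 and 230 CPM in controls. Adgre1, the gene of the macrophage antigen F4/80, had 23.2, 5.47 and 7.52 CPM with EET and 24.8, 27.0 and 28.3 CPM in controls. EET 1 thus stood apart from the other EET libraries in both genes, and neither passed the test. Of 7 tested platelet and erythroid markers 2 rose and 1 fell, Pf4 having the smallest p (1.43, or 0.31 with the trend removed), then Tfrc (−0.42, or −0.18). Ppbp, a platelet chemokine gene, rose as counted (0.57) and was not called with the trend removed (−0.13). Gp1bb was at 0 in every library. The list summed to 405 to 510 CPM with EET and 572 to 592 CPM in controls, nearly all of it Tfrc, the transferrin receptor gene that most dividing cells express, at 414 ± 45.3 CPM with EET and 552 ± 33.6 CPM in controls. The haemoglobin gene Hbb-bs had 50, 197 and 404 counts with EET and 996, 26 and 50 counts in controls, so that control 1 stood apart from the other controls.

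Of 12 pericyte and smooth muscle markers 8 fell and 2 rose, with Pdgfrb at −0.64 and Cspg4 at −0.82. With the trend removed 4 fell, these genes among them (−0.28 and −0.30), and 0 rose. Their sum ran from 424 to 443 CPM with EET and from 490 to 504 CPM in controls. Among 12 fibro-adipogenic markers 4 fell, such as Fbn1 (−1.08) and Pdgfra (−0.58), and 0 rose. Removal of the trend gave 5 lower and 1 higher. Fbn1 was then still lower (−0.45), and Pdgfra was not called (−0.053, edgeR adjusted p = 0.4997). That list summed to between 1002 and 1080 CPM with EET and between 1277 and 1302 CPM in controls. Schwann cell and neural crest markers held 4 of 8 lower, such as Ngfr (−0.51) and Sox10 (−0.33), and 1 higher, or 5 and 0 with the trend removed (Ngfr −0.47, Sox10 −0.48), with sums of 362 to 389 CPM with EET and 446 to 453 CPM in controls. Lymphatic markers held 3 of 5 tested lower, among them Flt4 (−1.22) and Reln (−1.03), and 1 higher. Once the trend was removed, only Flt4 (−0.80) and Reln (−0.39) of these 5 were lower, and 0 were higher. Their sum of 523 to 585 CPM with EET and 500 to 526 CPM in controls is nearly all Pdpn, Ccl21a was at 0 in every library, and Lyve1 was below the filter. Of 11 myogenic markers 5 rose and 2 fell, Megf10 (−0.64) and Pax7 (−0.45). Neither of these was called with the trend removed (−0.068 and −0.049). The 1 marker then lower was Myod1, which rose as counted, and the 1 then higher was the desmin gene Des (0.52). The myogenic markers summed to 3548 to 3618 CPM with EET and 3125 to 3388 CPM in controls. Median log2 fold changes, as counted and with the trend removed, were −0.51 and −0.24 for the pericyte and smooth muscle list. They were −0.028 and −0.080 for the fibro-adipogenic list and −0.099 and −0.27 for the Schwann and neural crest list. The lymphatic list had −0.78 and −0.39, the platelet and erythroid list −0.073 and −0.18, and the myogenic list 0.11 and −0.035. The part of any of these cell types in the levels of the 10 genes was not tested.

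The 5 genes whose levels over the 6 libraries were most like the summed level of the 10 genes were Gbp3, Ppp1r10, Col5a3, Smarca4 and Eprs. Pearson's r of log2(CPM + 1) with the log2 sum was 0.997 to 0.999 over these 6 libraries, among 11394 genes ranked. With 2 groups that are apart such values are common, and 1097 genes had an r over 0.95. Gbp3, an interferon-induced GTPase gene, was at 8.04 ± 0.263 CPM with EET and 10.9 ± 0.197 CPM in controls, and Smarca4, the gene of the chromatin remodeller BRG1, at 352 ± 13.8 and 465 ± 15.3 CPM. With the trend removed Gbp3, Ppp1r10, Col5a3 and Eprs were lower (−0.54, −0.25, −0.51 and −0.17), and Smarca4 was not called (0.046, against −0.40 as counted).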

How the data were processed

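The authors deposited raw counts per gene symbol for 6 libraries of poly(A) RNA, prepared with dUTP and read from both ends per the labels' protocols. The submitters' processing notes name FastQC, cutadapt, DESeq2 and GRCm38. The sources used here do not give the aligner, counting tool, strand setting or annotation release. Of counts between 11 and 50, 61.3 to 62.1% were even in controls and 65.0 to 65.6% with EET, so mates may have been counted apart. The groups did not overlap in this share, and why was not tested.

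The genes, lists and alternatives were chosen with earlier results of these data known. The count model was edgeR 4.0.16 in R 4.3.3 (filterByExpr, TMM, robust glmQLFit, glmQLFTest), with Benjamini-Hochberg adjustment at 0.05. For trend removal a loess curve (span 0.3, robust) on mRNA length and GC content of protein-coding genes entered as an offset. Lengths are of the longest protein-coding transcript of GENCODE M21, where 53292 of 55494 symbols matched. Other settings included RLE, unscaled totals, both looser and stricter filters, DESeq2 1.42.0, voom of limma 3.58.1, halved counts, a replicate block and fewer libraries. Code was tested on simulated data. Beside the 10 genes, those named are the smallest 2 p-values of each list, genes fixed by name, the 5 most alike and overlapping genes. Ramp2, Fabp4, Ecscr, Tspan7, Myod1, Gdf2, Bmp10, Cd3e, Gp1bb, Pdpn, Lyve1, Ccl21a, Lyz2, Adgre1, Ppbp, Hbb-bs and Des were named after their values were seen.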

Additional observations from a re-analysis of the deposited data

How the results depend on the processing

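Of the 10 genes, the 6 that fell kept their call and direction under each alternative that tested them. Log2 fold changes ran from −1.13 to −0.80 for Cdh5, from −0.68 to −0.54 for Pecam1, from −1.03 to −0.78 for Erg, from −1.16 to −0.89 for Sox17, from −0.76 to −0.42 for Tek and from −0.61 to −0.35 for Tie1. Sox17 was not tested under the filter of over 5 CPM. Removal of the length and GC trend turned Egfl7 to −0.061, also with the replicate block, so that 0 of the 10 genes were higher in either fit, and made Sox18 lower (−0.70 in both). Leaving out 1 library gave 7 called genes of the 10 each time, 6 lower and 1 higher. Over all genes the trend removal gave 4719 calls (2359 higher, 2360 lower) in place of 7716, or 4977 (2471 higher) with the replicate block, and leaving out 1 library gave 6320 to 8055. The log2 ratio of the summed level of the 10 genes was −0.43, −0.50 with library totals and −0.33 per kb of mRNA. Same-numbered libraries did not deviate together (r of −0.0035, −0.050 and 0.0089 for pairs 1, 2 and 3), and no EET library correlated best with the control of its own number. The labels do not say whether the numbers pair the samples, and with so few libraries these correlations cannot decide it. With the replicate block 8321 genes were called, and 7 of the 10. Sox17, with 54 to 167 counts a library, is the gene whose precision depth limits most.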
